A study of Mus musculus with 29 samples.

Results

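The genes described here are 10 genes of osteoclast fusion and bone resorption: Acp5, Ctsk, Ocstamp, Dcstamp, Calcr, Oscar, Atp6v0d2, Tnfsf11, Tnfrsf11a and Tnfrsf11b. They were taken by symbol from a time course table that lists 24411 genes and by Ensembl identifier from an amputation table that lists 55487, and all 10 were found in both. Poly(A) RNA came from the distal digit of the left mouse hindlimb after removal of the nail, in 29 libraries of 10 groups. In the time course, mice with spared nerve injury (SNI), in which the tibial and common peroneal nerves were cut, were set against sham-operated mice whose nerves were left intact. Every mouse of the time course had a digit tip amputated 5 days after surgery, and digits were taken 7, 14 and 21 days after amputation. SNI digits gave 3 libraries on each of these days, and sham digits gave 3 at day 7, 3 at day 14 and 2 at day 21. In the second set all mice carried the nerve injury, and amputated digits at day 7 and day 14 (n = 3 each) were set against unamputated digits at day 7 and day 14 (n = 3 each). The labels of the unamputated digits conflict, since the treatment field says that no amputation was done while the time and tissue fields name an amputated regenerate; the treatment field was followed. SNI spares the sural nerve, and the innervation left in the digits was not analysed here.

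Osteoclasts are multinucleated cells of the monocyte and macrophage lineage that dissolve bone. Cells of the osteoblast lineage and other stromal cells make RANKL (Tnfsf11), which binds RANK (Tnfrsf11a) on precursors and drives them to fuse and to switch on the genes of resorption. Osteoprotegerin (Tnfrsf11b) is a soluble decoy receptor that binds RANKL, so the balance of ligand and decoy sets how many osteoclasts form. In the amputated mouse digit tip, osteoclasts erode the stump of the terminal phalanx before the blastema forms and bone is rebuilt.

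Library totals lay between 35654192 and 56809440 counts in the time course and between 31274245 and 43315729 in the amputation set. After a filter on low counts 16084 and 17475 genes were tested, with all 10 osteoclast genes among them in the time course and 9 in the amputation set, where Calcr was too low. Levels are CPM, counts scaled by library size, with library sizes adjusted by the TMM method, and the tables were kept apart. TMM scaling factors were under 0.8 in SNI day 7 replicate 2 and sham day 21 replicate 1. SNI day 7 replicate 2 also had a summed level of neutrophil markers of 14598 CPM, against 5.76 to 263 CPM in the other 28 libraries. Markers of epidermis, fibroblasts, bone and macrophages were present in all libraries. In whole digits, fewer cells of a type and less RNA per cell cannot be told apart.

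The genes spanned a wide range of levels when set against the length of their exons. Exon lengths are from a GRCm38 annotation while the submitters' processing notes name GRCm39, so levels per kilobase are approximate. Per kilobase of exon, Ctsk, the collagen-cleaving protease cathepsin K, stood highest in both sets, at 283 CPM per kilobase averaged over the time course and 94.4 over the amputation set. Acp5, which codes tartrate-resistant acid phosphatase and is the enzyme stained to show osteoclasts, came second at 123 and 56.9 CPM per kilobase. The other 8 genes lay at or under 4.02 CPM per kilobase. In that lower range were the proton pump subunit gene Atp6v0d2, the decoy Tnfrsf11b and the ligand Tnfsf11 with 4.02, 2.83 and 2.03 CPM per kilobase in the time course. Calcr, the calcitonin receptor, was lowest in both sets with 0.04405 and 0.0295 CPM per kilobase, and its counts were between 0 and 28 per library. Tnfrsf11a and Tnfrsf11b varied least: their highest library was 3.67 and 2.82 times the lowest in the time course, against 11.1 for Acp5 and 47.4 for Ocstamp.

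Start site windows of the most abundant genes, of the ligand and of Oscar are shown, for Acp5 only that of the third start site. They include every window of these 10 genes that holds letters capitalised below, so they are a selection. Each window holds 250 bases before and 50 bases after a start site (RefSeq, GRCm38.p6), read 5′ to 3′ on the strand of the gene. Capitals mark the letters GAGGAA, the core bound by PU.1, and CATGTG, an E-box bound by MITF, on either strand.
Ctsk, chr3:95498960-95499259, plus strand: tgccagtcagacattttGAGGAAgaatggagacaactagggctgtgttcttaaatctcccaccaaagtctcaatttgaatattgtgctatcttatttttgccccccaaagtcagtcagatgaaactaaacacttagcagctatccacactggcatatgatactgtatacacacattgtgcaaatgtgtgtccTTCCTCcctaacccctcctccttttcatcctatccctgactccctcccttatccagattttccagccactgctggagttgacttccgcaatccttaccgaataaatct
Acp5, chr9:22130549-22130848, minus strand: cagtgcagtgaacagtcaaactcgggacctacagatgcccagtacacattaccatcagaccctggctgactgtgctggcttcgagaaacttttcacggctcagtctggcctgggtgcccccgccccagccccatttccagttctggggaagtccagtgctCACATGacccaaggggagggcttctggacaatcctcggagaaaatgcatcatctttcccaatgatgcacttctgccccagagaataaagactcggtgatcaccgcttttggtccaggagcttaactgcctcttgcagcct
Oscar, chr7:3616108-3616407, minus strand: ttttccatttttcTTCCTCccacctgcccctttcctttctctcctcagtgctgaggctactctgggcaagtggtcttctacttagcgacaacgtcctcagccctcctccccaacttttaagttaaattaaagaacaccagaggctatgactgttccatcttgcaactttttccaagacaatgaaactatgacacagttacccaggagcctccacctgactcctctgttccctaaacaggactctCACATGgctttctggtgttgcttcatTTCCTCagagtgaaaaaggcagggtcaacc
Tnfsf11, chr14:78307994-78308293, minus strand: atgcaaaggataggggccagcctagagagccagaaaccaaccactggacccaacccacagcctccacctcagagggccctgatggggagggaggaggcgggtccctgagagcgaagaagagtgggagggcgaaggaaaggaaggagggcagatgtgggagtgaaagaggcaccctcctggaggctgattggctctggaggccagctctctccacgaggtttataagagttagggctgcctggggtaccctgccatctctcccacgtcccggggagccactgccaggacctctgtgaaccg
Ctsk held the PU.1 core at 2 places and Oscar at 2 places, and Oscar and the third start site of Acp5 held the E-box once each. Over 32544 windows of the same length, 28.1% held the PU.1 core and 14.2% the E-box. The AP-1 letters TGANTCA were in none of the 9 windows of the 6 genes listed, against 7.79% of all windows. The NFAT core GGAAA, which can overlap GAGGAA and is not capitalised, was in 7 of the 9 windows and in 61.5% of all windows. The 5 windows that are not shown, of other Acp5 start sites, Calcr and Tnfrsf11a, hold neither capitalised word. Tnfsf11 held neither capitalised word, which says only that these letters are not in this window. The table gives windows for 6 of the 10 genes, and the other 4 are Ocstamp, Dcstamp, Atp6v0d2 and Tnfrsf11b.

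The second set asks what amputation does to these genes in digits that all carry the nerve injury. Averaged over both days, Acp5, Ctsk, Ocstamp and Tnfsf11 rose in amputated digits relative to unamputated digits, by between 2.33-fold and 11.1-fold, and no tested member fell. This was 4 of the 9 genes tested, against 11.8% of all genes called in this comparison with 5.71% called higher and 6.08% called lower. The calls are at an adjusted p (Benjamini-Hochberg over all genes, edgeR's quasi-likelihood test) under 0.05. The median log2 fold change of the 9 genes was 1.91, beside 0.01 over all genes tested. Of the genes not called, Dcstamp, Oscar, Atp6v0d2 and Tnfrsf11a had positive values and Tnfrsf11b a negative one.

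Ctsk and Acp5 carry out resorption itself, the first by cutting bone collagen in the acid space under the cell. Ctsk had 684, 155 and 119 CPM in amputated digits at day 7, against 36.2, 47.2 and 119 CPM in unamputated digits. At day 14 it had 148, 93.8 and 171 CPM in amputated digits, against 51.7, 36.7 and 49.96 CPM in unamputated digits. The groups touched at day 7, where the third unamputated digit was as high as the lowest amputated one, and did not overlap at day 14. The log2 fold change averaged over days was 1.91 (SE 0.50, adjusted p = 0.0418). Acp5 had 386, 138 and 126 CPM in amputated digits at day 7, against 58.1, 51.98 and 101 CPM in unamputated digits, and 99.4, 116 and 119 CPM in amputated digits at day 14, against 67.04, 61.7 and 61.3 CPM in unamputated digits. All 6 amputated libraries of Acp5 lay above the unamputated ones of the same day (log2 fold change 1.22, SE 0.29, adjusted p = 0.0294). Over all genes tested, 19.2% did not overlap between these groups at day 7 and 32.6% at day 14. Without overlap, 4 of the 9 osteoclast genes lay higher at day 7 and 1 lower, beside 10.4% and 8.86% of all genes. At day 14, 5 lay higher and 0 lower, beside 15.9% and 16.7% of all genes.

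Ocstamp and Dcstamp code membrane proteins that osteoclast precursors need to fuse. Ocstamp was near its floor in unamputated digits, with 2, 4 and 25 counts at day 7 and 4, 8 and 6 counts at day 14. It had 10.5, 1.52 and 0.827 CPM in amputated digits at day 7, against 0.05201, 0.108 and 0.722 CPM in unamputated digits. At day 14 the values were 1.59, 0.632 and 2.17 CPM in amputated digits and 0.123, 0.227 and 0.163 CPM in unamputated digits. The groups did not overlap on either day, although the lowest amputated digit at day 7 was only a little above the third unamputated one (log2 fold change 3.48, SE 0.80, adjusted p = 0.0243). Dcstamp had 11.5, 1.83 and 1.04 CPM in amputated digits at day 7, against 0.13, 0.135 and 1.59 CPM in unamputated digits, and the groups overlapped (log2 fold change 2.19, SE 0.80, adjusted p = 0.101). Atp6v0d2, a subunit of the proton pump that is also needed for fusion, had 29.3, 6.198 and 3.79 CPM in amputated digits at day 7, against 0.442, 0.513 and 5.23 CPM in unamputated digits. The third unamputated digit again lay inside the amputated range (log2 fold change 2.48, SE 0.75, adjusted p = 0.0601).

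Oscar, an activating receptor that binds collagen and costimulates osteoclast formation, averaged 0.6504 ± 0.627 CPM in amputated digits and 0.219 ± 0.196 CPM in unamputated digits (SD, n = 6 each) and was not called (log2 fold change 1.39, SE 0.53, adjusted p = 0.102). Calcr, through which calcitonin restrains osteoclasts, summed to 43 counts over the 6 amputated libraries and 10 counts over the 6 unamputated ones, and was not tested.

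Of the ligand and its receptors, Tnfsf11 was called by edgeR and Tnfrsf11a and Tnfrsf11b were not. The ratio of Tnfsf11 to Tnfrsf11b is tested below, and differences that involve Tnfrsf11a were not tested. Tnfsf11 had 7.95, 1.85 and 1.04 CPM in amputated digits at day 7, against 0.572, 0.513 and 0.925 CPM in unamputated digits. At day 14 it had 1.96, 1.14 and 3.698 CPM in amputated digits, against 0.7995, 0.767 and 0.761 CPM in unamputated digits. Every amputated library stood above the unamputated ones of its day (log2 fold change 1.99, SE 0.48, adjusted p = 0.0266). Tnfrsf11a, the signalling receptor, had 21.4, 13.2 and 13.2 CPM in amputated digits at day 7, against 12.3, 8.23 and 10.7 CPM in unamputated digits, without overlap. At day 14 its 9.57 ± 0.484 CPM in amputated digits and 9.57 ± 1.197 CPM in unamputated digits overlapped, and the average was not called (log2 fold change 0.31, SE 0.14, adjusted p = 0.166). The decoy Tnfrsf11b had 5.08, 4.14 and 5.47 CPM in amputated digits at day 7, against 8.66, 7.63 and 6.16 CPM in unamputated digits, so here the unamputated digits were the higher ones. At day 14 the Tnfrsf11b values were 5.91, 5.93 and 5.25 CPM in amputated digits and 5.78, 5.82 and 7.99 CPM in unamputated digits, and the average was not called (log2 fold change -0.40, SE 0.13, adjusted p = 0.0582).

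**Figure D1:**
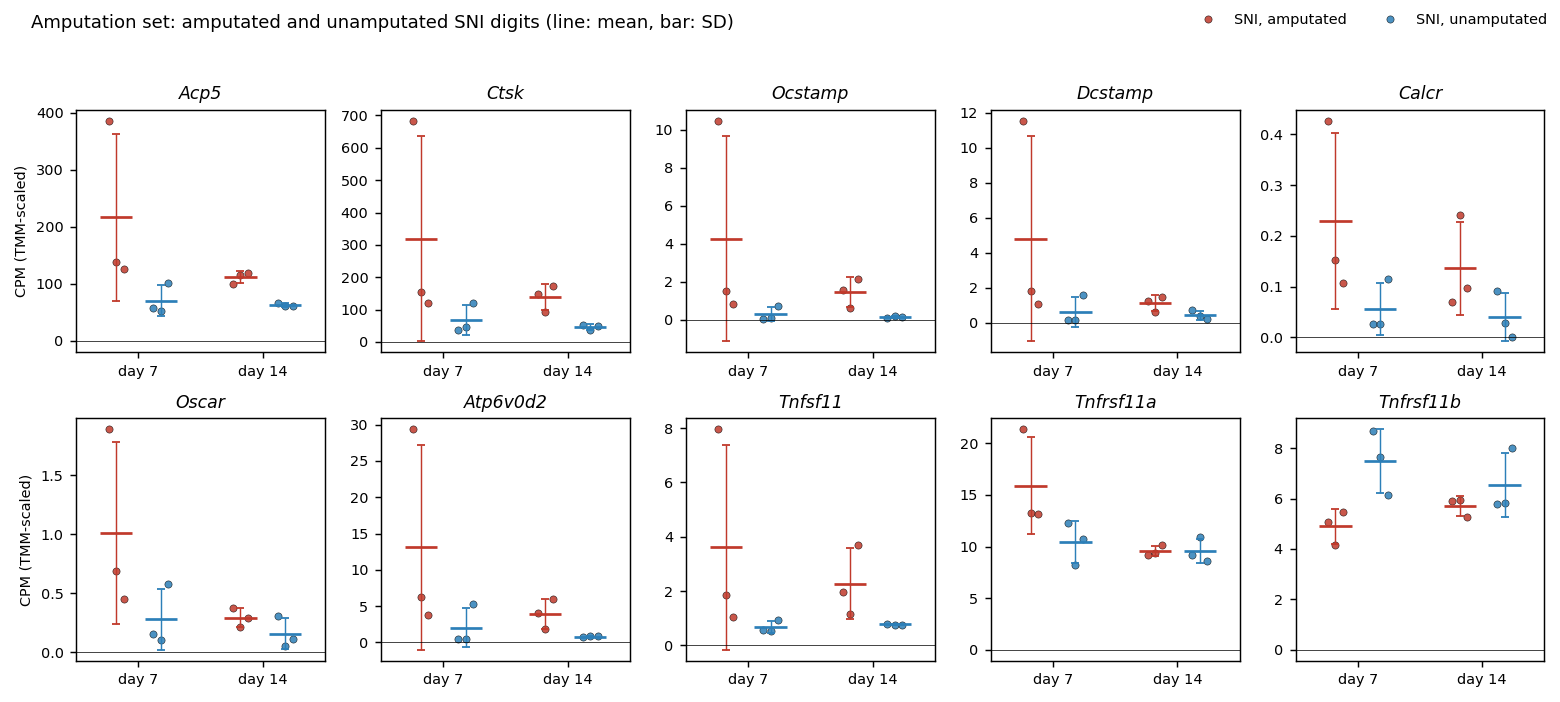
TMM-scaled CPM of the 10 genes in amputated and unamputated SNI digits at day 7 and day 14; points are libraries, lines means and bars SD (n = 3 each), with a separate linear axis per gene. The first amputated digit at day 7 is the highest point in 9 of 10 panels, and Tnfrsf11b has its higher values in unamputated digits at day 7.

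Taken singly, neither day gave a call among the 9 genes. At day 7, 1.35% of all genes were called and 0 of the 9. All 9 had an unadjusted p under 0.05, as did 2634 of all 17475 genes. At day 14, 2.75% of all genes were called and 0 of the 9. An unadjusted p under 0.05 was found for 2 of the 9 and for 4197 of all 17475 genes, which is a like share. By DESeq2 the calls were 4 of the 9 at day 7 (Acp5, Ocstamp and Tnfsf11 higher, Tnfrsf11b lower), with 4.44% of all genes called, and 0 at day 14. A fit of the 6 libraries of day 14 alone called Acp5, Ctsk, Ocstamp and Atp6v0d2 higher, with 3.02% of all genes called. The test of a difference between the days called 0 of the 9 and 0% of all genes. Its unadjusted p was under 0.05 for 1 of the 9 (Tnfrsf11a) and for 1092 of all 17475 genes. DESeq2 also called 0 of the 9 in this test.

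The call of the 4 genes over both days depended on single libraries. Leaving out any of 5 unamputated digits gave 0 calls among the 9 genes: day 7 replicate 1 (4.13% of all genes called), day 7 replicate 2 (5.46%) and day 14 replicates 1 (7.08%), 2 (5.93%) and 3 (5.15%). Without unamputated day 7 replicate 3, 8 of the 9 genes were called, all but Tnfrsf11a, with 13.6% of all genes called and an Ocstamp log2 fold change of 4.39. Without amputated day 7 replicate 1, the highest of the 12 libraries for 9 of the 10 genes, Acp5, Ocstamp and Tnfsf11 were called, with 7.12% of all genes. The log2 fold changes of the 4 genes were then 0.86 (Acp5), 1.30 (Ctsk), 2.54 (Ocstamp) and 1.33 (Tnfsf11). Leaving out amputated day 14 replicate 2 gave Ocstamp and Tnfsf11 (7.91% of all genes), and leaving out replicate 3 gave Ocstamp (7.52%). Without the filter on low counts 0 of the 9 were called, with 5.5% of 30976 genes called. With the replicate number added to the fit as a block, Ocstamp and Tnfsf11 were called, with 6.37% of all genes called. DESeq2 called 7 of the 9 (Dcstamp and Atp6v0d2 higher and Tnfrsf11b lower in addition), with 17.7% of all genes called.

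Markers of other cells also differed between these libraries. The summed level of 12 osteoblast and osteocyte markers was 8548, 1399.7 and 7422 CPM in amputated digits at day 14, against 1570.2, 1234 and 1569 CPM in unamputated digits, with 4 of the 12 called higher in the average over days. At day 7 the sums overlapped, with 2618, 1125 and 1269 CPM in amputated digits and 1469.9, 1814 and 1001 CPM in unamputated digits. The summed level of 8 macrophage markers was 406, 196 and 177 CPM in amputated digits at day 7, against 205, 239 and 252 CPM in unamputated digits, with the high value in the library that was also highest for the osteoclast genes. At day 14 the macrophage sums were 167 to 211 CPM in amputated digits and 204 to 221 CPM in unamputated digits. Of the 8 macrophage markers, 1 was called higher and 1 lower in the average over days. None of these 20 markers was at 0 in any of the 12 libraries. The summed level of 5 erythroid markers was 204, 99.1 and 210 CPM in amputated digits at day 7, against 41.2, 51.3 and 74.9 CPM in unamputated digits, and overlapped at day 14, with 1 of the 4 tested called higher in the average. The summed level of 5 markers of differentiated epidermis was 37893 to 49206 CPM in amputated digits and 54138 to 69296 CPM in unamputated digits, lower in every amputated digit, with 3 of the 5 called lower. The part of these cells in the results was not tested.

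Between the 2 days of this set edgeR called none of the 9 genes. At day 14 amputated digits averaged 138 ± 39.9 CPM of Ctsk, against 319 ± 316 CPM at day 7 (SD, n = 3 each), with overlap between the days (log2 fold change -1.21, SE 0.69, adjusted p = 0.476). Tnfrsf11a averaged 9.57 ± 0.484 CPM at day 14, against 15.9 ± 4.71 CPM at day 7, without overlap (log2 fold change -0.74, SE 0.20, adjusted p = 0.143). It was 1 of 3 members that lay lower at day 14 without overlap, beside 7.75% of all genes. Of all genes 0.607% were called between the amputated days and 0.303% between the unamputated ones, in each case with 0 of the 9. DESeq2 called Tnfrsf11a lower at day 14 in amputated digits, among 2.58% of all genes.

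The time course asks how the genes run over regeneration in digits with and without the nerve injury. No gene of the 16084 was called by edgeR in any contrast of the time course, so the share called was 0% throughout and no osteoclast gene is called changed. The largest differences were at day 14, where 8 of the 10 genes had a log2 fold change of SNI against sham between 2.34 and 3.74. These genes were high in SNI day 14 replicates 1 and 3, while replicate 2 stood within or near the range of the sham digits. In sham digits the same genes were lower at day 14 than at day 7 in every library.

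In sham digits, Ctsk had 314, 508 and 518 CPM at day 7, 140.1, 91.02 and 114 CPM at day 14 and 213 and 296 CPM at day 21. Acp5 had 224, 319.7 and 331 CPM at day 7, 87.7, 73.6 and 70.03 CPM at day 14 and 196 and 155 CPM at day 21. In TMM-scaled CPM both were lowest at day 14, and neither day 14 nor day 21 overlapped with day 7. Over all genes, 10.7% lay lower at day 21 than at day 7 without overlap. Day 21 has 2 sham libraries, and replicate 1 had a TMM factor of 0.633, which raises its CPM, so the place of day 21 depends on this scaling. Dcstamp had 2.77, 4.87 and 4.47 CPM at day 7, 0.769, 0.515 and 1.01 CPM at day 14 and 2.44 and 2.85 CPM at day 21. Tnfsf11 had 3.84, 5.36 and 4.17 CPM at day 7, 1.68, 1.54 and 1.202 CPM at day 14 and 2.76 and 2.26 CPM at day 21. The order of the days was the same for ligand and fusion gene. All 10 genes had a negative log2 fold change of day 14 against day 7 in sham digits, with a median of -1.93 beside -0.01 over all genes. The 3 libraries of day 14 lay below the 3 of day 7 for 9 of them, all but Tnfrsf11b, beside 9.39% of all genes that lay lower in this way and 0% of all genes called. The Ctsk value was -1.96 (SE 0.67) with an adjusted p of 0.9999, and 7 of the 10 genes had an unadjusted p under 0.05, as did 315 of all genes. A fit of these 6 libraries alone called Acp5 lower, 1 of 11 genes called among 15326 (0.0718%). The osteoblast and osteocyte marker sum ran the other way, with 8222, 5198 and 6649 CPM at day 14, against 4308, 2946 and 1912 CPM at day 7, and the macrophage marker sum was 139.5, 141 and 164 CPM at day 14, against 251, 327 and 218 CPM at day 7. Their part in the result was not tested.

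In SNI digits, Ctsk had 344, 493 and 861 CPM at day 7, 567, 129.7 and 1613 CPM at day 14 and 551, 261 and 254 CPM at day 21. Dcstamp had 2.86, 5.11 and 8.798 CPM at day 7, 7.92, 0.669 and 22.1 CPM at day 14 and 4.96, 2.36 and 1.46 CPM at day 21. For both genes the range within day 14 was wider than the differences between the days. SNI day 14 replicate 3 was the highest of the 17 libraries for 8 genes, and SNI day 14 replicate 2 the lowest of its group for 9 genes and the lowest of all 17 for 4. Of these 4, Calcr was tied at 0 counts with sham day 14 replicate 3 and SNI day 21 replicate 2. Between day 14 and day 7, 0 of the 10 genes were called and 0 had an unadjusted p under 0.05, beside 487 of all 16084 genes. Tnfsf11 at day 21 lay below day 7 in every SNI library, with 2.12, 2.74 and 1.73 CPM at day 21 and 2.96, 5.02 and 8.93 CPM at day 7, and was not called (log2 fold change -1.36, SE 0.60). Over all genes, 2.42% lay lower in this way.

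**Figure D2:**
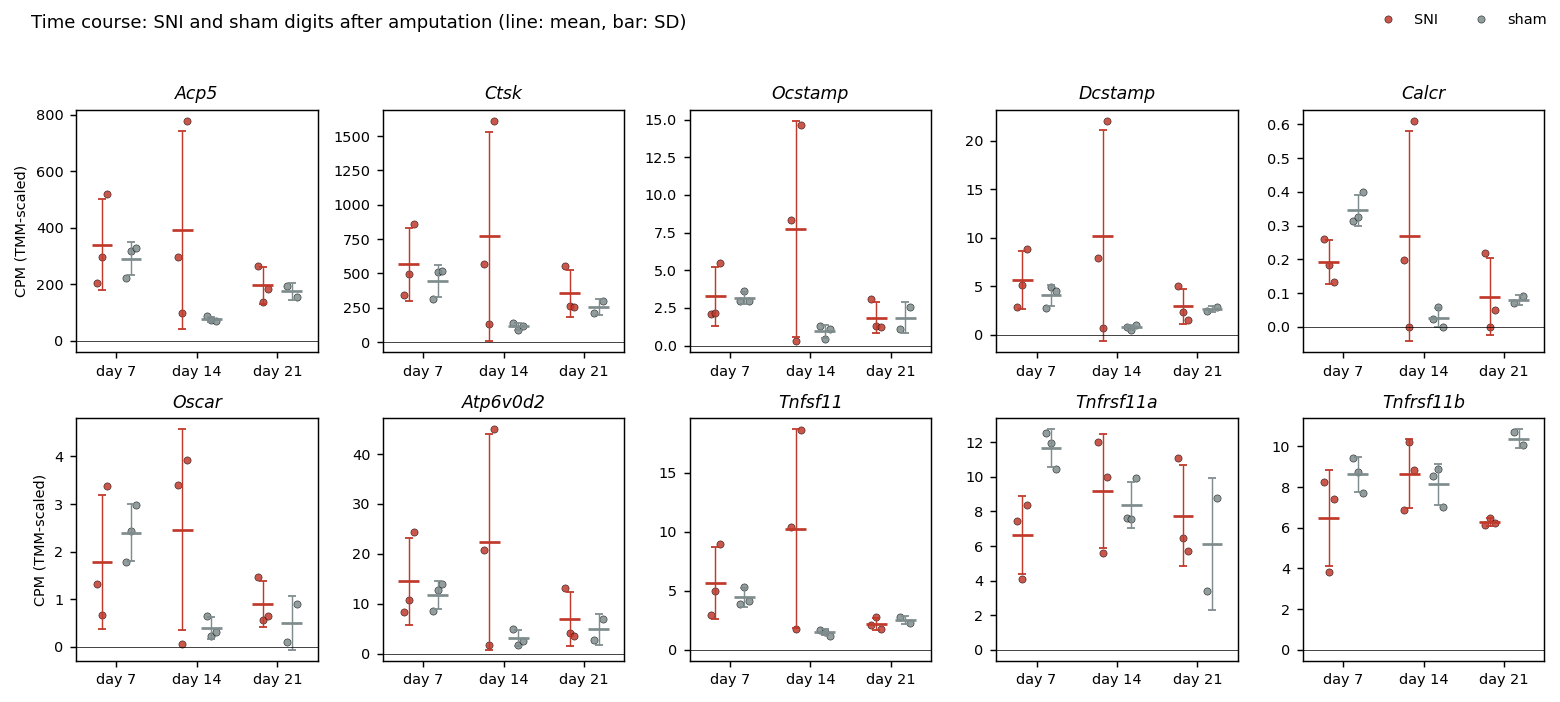
TMM-scaled CPM of the 10 genes in SNI and sham digits at days 7, 14 and 21 after amputation; points are libraries, lines means and bars SD (n = 3, and n = 2 for sham at day 21), with a separate linear axis per gene. For 8 genes the top point of the panel is SNI day 14 replicate 3, and the sham digits at day 14 sit low and close together.

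At day 14, Ctsk had 567, 129.7 and 1613 CPM in SNI digits, against 140.1, 91.02 and 114 CPM in sham digits. The second SNI digit lay within the sham range and the other two lay above it, and each SNI digit was above the sham digit of the same replicate number (log2 fold change 2.74, SE 0.69, adjusted p = 0.555). Acp5 had 298, 97.3 and 779.6 CPM in SNI digits and 87.7, 73.6 and 70.03 CPM in sham digits, where the lowest SNI digit was above the highest sham digit (log2 fold change 2.34, SE 0.57). Among the fusion genes, Dcstamp had 7.92, 0.669 and 22.1 CPM in SNI digits, against 0.769, 0.515 and 1.01 CPM in sham digits (log2 fold change 3.74, SE 0.91). Ocstamp had 8.35, 0.309 and 14.6 CPM in SNI digits, against 1.28, 0.458 and 1.11 CPM in sham digits (log2 fold change 3.04, SE 0.93). For both, the second SNI digit was inside or under the sham range. Of the 10 genes, Acp5, Ctsk, Dcstamp and Tnfsf11 were higher in SNI digits in 3 of 3 same-numbered pairs, and the other 6 in 2 of 3. The labels do not say what same-numbered libraries share, so these pairs are only a description. Such pairs were not counted over all genes. Atp6v0d2 had 20.7, 1.698 and 44.96 CPM in SNI digits, against 4.82, 1.77 and 2.57 CPM in sham digits, and Oscar had 3.41, 0.0515 and 3.93 CPM in SNI digits, against 0.652, 0.229 and 0.313 CPM in sham digits. Calcr had 12, 0 and 28 counts in SNI digits, against 1, 3 and 0 counts in sham digits. The ligand Tnfsf11 had 10.4, 1.72 and 18.6 CPM in SNI digits, against 1.68, 1.54 and 1.202 CPM in sham digits, and did not overlap, with 1.72 CPM in the lowest SNI digit and 1.68 CPM in the highest sham digit (log2 fold change 2.79, SE 0.63). The receptor Tnfrsf11a and the decoy Tnfrsf11b did not share this pattern, with log2 fold changes of 0.14 (SE 0.39) and 0.09 (SE 0.25) and overlap between the groups. Acp5 and Tnfsf11 were the 2 members without overlap at day 14, beside 23.3% of all genes.

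All 10 genes had a positive log2 fold change at day 14, with a median of 2.77 beside 0.03 over all genes. Of the 10, 8 had an unadjusted p under 0.05, as did 954 of all 16084 genes, and their adjusted p in edgeR was between 0.555 and 0.578. DESeq2, which called 0.358% of all genes at this day, called Acp5, Ctsk, Dcstamp and Tnfsf11 higher in SNI digits. Leaving out any library gave 0 calls by edgeR. The macrophage marker sum was 229.7, 318 and 564 CPM in SNI digits at day 14, against 139.5, 141 and 164 CPM in sham digits, and all 8 macrophage markers had a positive log2 fold change. The osteoblast and osteocyte marker sum was 13391, 1875 and 1975 CPM in SNI digits, against 8222, 5198 and 6649 CPM in sham digits. None of these markers was at 0 in a library, and the part of these cells in the result was not tested.

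At day 7 the osteoclast genes overlapped between SNI and sham digits for 8 of the 10, and the 2 without overlap stand beside 37.4% of all genes without overlap. Of the 10, 0 had an unadjusted p under 0.05, beside 2191 of all 16084 genes. Ctsk had 344, 493 and 861 CPM in SNI digits, against 314, 508 and 518 CPM in sham digits (log2 fold change 0.34, SE 0.64). Tnfrsf11a had 7.45, 4.08 and 8.38 CPM in SNI digits, against 12.5, 11.98 and 10.4 CPM in sham digits, and lay lower in all SNI digits (log2 fold change -0.81, SE 0.39, adjusted p = 0.301). Calcr was the other gene without overlap, with 13, 6 and 6 counts in SNI digits against 14, 16 and 19 counts in sham digits. At day 21 Ctsk had 551, 261 and 254 CPM in SNI digits, against 213 and 296 CPM in sham digits (log2 fold change 0.48, SE 0.73). Of the 2 sham libraries at day 21, replicate 1 had a TMM factor of 0.633, which raises its CPM. Its 307 Tnfrsf11b counts came from a total of 45319041, beside 561 from 50578253 in replicate 2. Tnfrsf11b had 6.13, 6.49 and 6.22 CPM in SNI digits at day 21, against 10.7 and 10.1 CPM in sham digits. The gene was lower in all 3 SNI digits, as were 3.3% of all genes (log2 fold change -0.73, SE 0.28, and -0.68 without sham replicate 1). It was the single member with an unadjusted p under 0.05 at day 21, beside 354 of all 16084 genes, and its adjusted p was 1.

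Over the 3 days together, Ctsk had 129.7, a median of 493 and 1613 CPM as the lowest, the middle and the highest of 9 SNI libraries, against 91.02, a median of 254 and 518 CPM in 8 sham libraries. The groups overlapped widely (log2 fold change 1.19, SE 0.40, adjusted p = 0.337). Of the 10 genes, 6 had an unadjusted p under 0.05 in this average, 5 of them positive (Acp5, Ctsk, Dcstamp, Atp6v0d2 and Tnfsf11) and 1 negative (Tnfrsf11b, at -0.35, SE 0.15). The median of the 10 was 0.99 beside 0.01 over all genes, where 2248 genes had an unadjusted p under 0.05. A difference in the SNI effect between days was not called for any of the 10 (adjusted p = 0.712 for each). Of them, 4 (Acp5, Ctsk, Dcstamp and Tnfsf11) had an unadjusted p under 0.05, as did 588 of all 16084 genes. DESeq2 called 0 of the 10 in the average and 0 in the test of days.

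**Figure D3:**
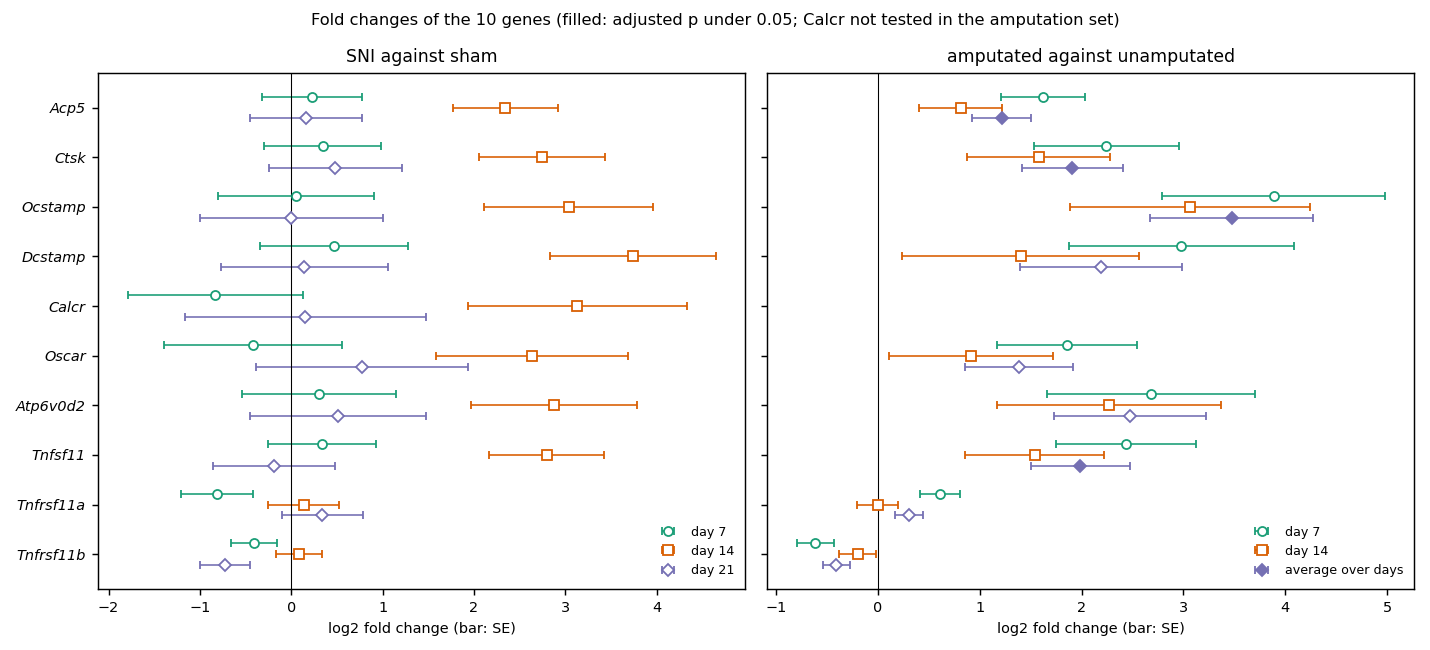
Log2 fold changes of the 10 genes, SNI against sham at days 7, 14 and 21 and amputated against unamputated SNI digits at days 7 and 14 and averaged over days, with bars of 1 SE from edgeR's quasi-likelihood fit. Filled points have an adjusted p under 0.05, and are Acp5, Ctsk, Ocstamp and Tnfsf11 in the amputation average. Values at day 14 of the time course reach 3.74 for Dcstamp, and Tnfrsf11a and Tnfrsf11b stay near 0 there; Calcr was not tested in the amputation set.

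The ratio of ligand to decoy was taken per library from the counts of Tnfsf11 and Tnfrsf11b, so it does not depend on library scaling. In the amputation set the ratio was 1.57, 0.448 and 0.1902 in amputated digits at day 7, against 0.0661, 0.0671 and 0.1502 in unamputated digits. At day 14 it was 0.332, 0.193 and 0.704 in amputated digits, against 0.138, 0.132 and 0.0952 in unamputated digits. Every amputated digit had a higher ratio than every unamputated digit of the same day. The log2 ratio differed by 2.04 between amputated and unamputated digits averaged over the days, a 4.11-fold difference, with p = 0.005 in a two-sided exact permutation test within days, the smallest p that this design allows (adjusted p = 0.01 over the 2 ratio tests). Within a day the smallest possible p is 0.1, and both days reached it, with differences of 2.53 at day 7 and 1.55 at day 14.

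In the time course the ratio was 0.358, 1.32 and 1.21 in SNI digits at day 7, against 0.408, 0.612 and 0.542 in sham digits. At day 14 it was 1.52, 0.168 and 2.099 in SNI digits, against 0.196, 0.174 and 0.172 in sham digits. At day 21 it was 0.345, 0.422 and 0.278 in SNI digits, against 0.257 and 0.225 in sham digits. The groups overlapped at days 7 and 14 and did not overlap at day 21. The 3 sham digits at day 14 lay within a narrow band, while the SNI digits of that day held both the lowest ratio and the 2 highest of the time course. The log2 ratio was 1.12 higher in SNI digits averaged over days, a 2.18-fold difference, with p = 0.0255 in the two-sided exact permutation test within days (adjusted p = 0.0255 over the 2 ratio tests). By day the differences were 0.69, 2.17 and 0.52 at days 7, 14 and 21, with exact permutation p of 0.4, 0.4 and 0.2, where 0.1 is the smallest possible. Once the pair of libraries with low TMM factors was left out, the average no longer passed 0.05 (1.05, exact permutation p = 0.0563). The same held on leaving out SNI day 7 replicate 2 (p = 0.0565) or replicate 3 (p = 0.056), or sham day 14 replicate 1 (p = 0.0635), replicate 2 (p = 0.0685) or replicate 3 (p = 0.0685), each by the exact permutation test.

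**Figure D4:**
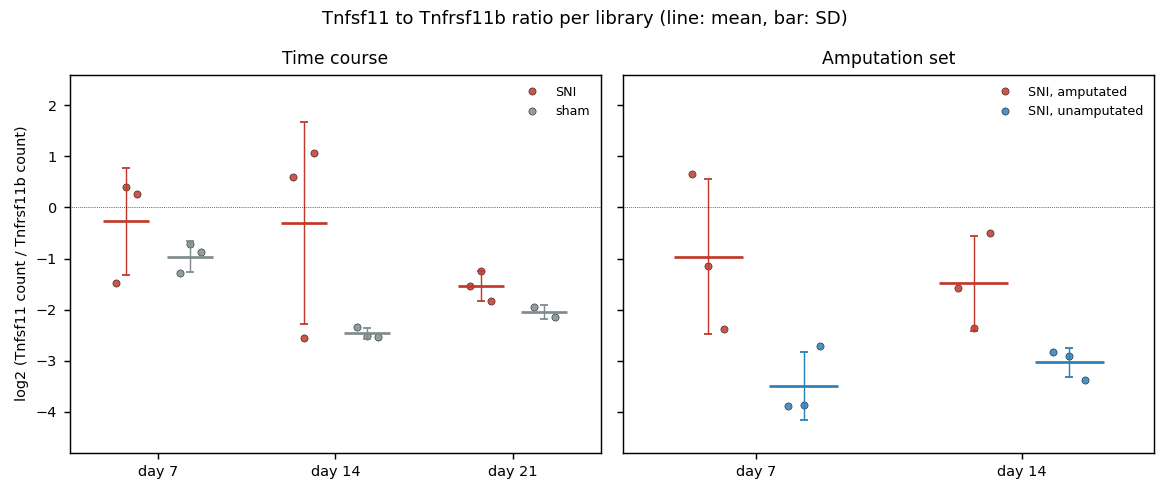
Ratio of Tnfsf11 to Tnfrsf11b counts per library on a log axis, for SNI and sham digits of the time course and for amputated and unamputated SNI digits; points are libraries and lines are means of the log2 ratio. In the amputation set all amputated points lie above the unamputated points of their day. In the time course SNI day 14 spans log2 ratios of -2.56 to 1.07, which are count ratios of 0.168 to 2.10.

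Over the 17 libraries of the time course, the 8 genes other than Tnfrsf11a and Tnfrsf11b had pairwise Pearson's r of log2 CPM between 0.719 and 0.979, and the r of Tnfrsf11a with them was between 0.232 and 0.689. Over the 12 libraries of the amputation set, r was between 0.759 and 0.978 among the 7 tested ones and between 0.643 and 0.803 for Tnfrsf11a with them. The r of Tnfrsf11b with the same 8 genes was between -0.241 and -0.035 in the time course. With the 7 genes of the amputation set it was between -0.777 and -0.636. Between Tnfrsf11b and Tnfrsf11a, r was 0.1565 in the time course and -0.459 in the amputation set. The points share libraries, depth and group differences, so r is a description. SNI day 14 replicate 3 ranked first for 8 genes of the time course, and amputated day 7 replicate 1 ranked first for 9 genes of the amputation set. In the unamputated digits at day 7, replicate 3 was the highest of its group for 8 genes, with 5.23 CPM of Atp6v0d2 beside 0.442 and 0.513 CPM in replicates 1 and 2.

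**Figure D5:**
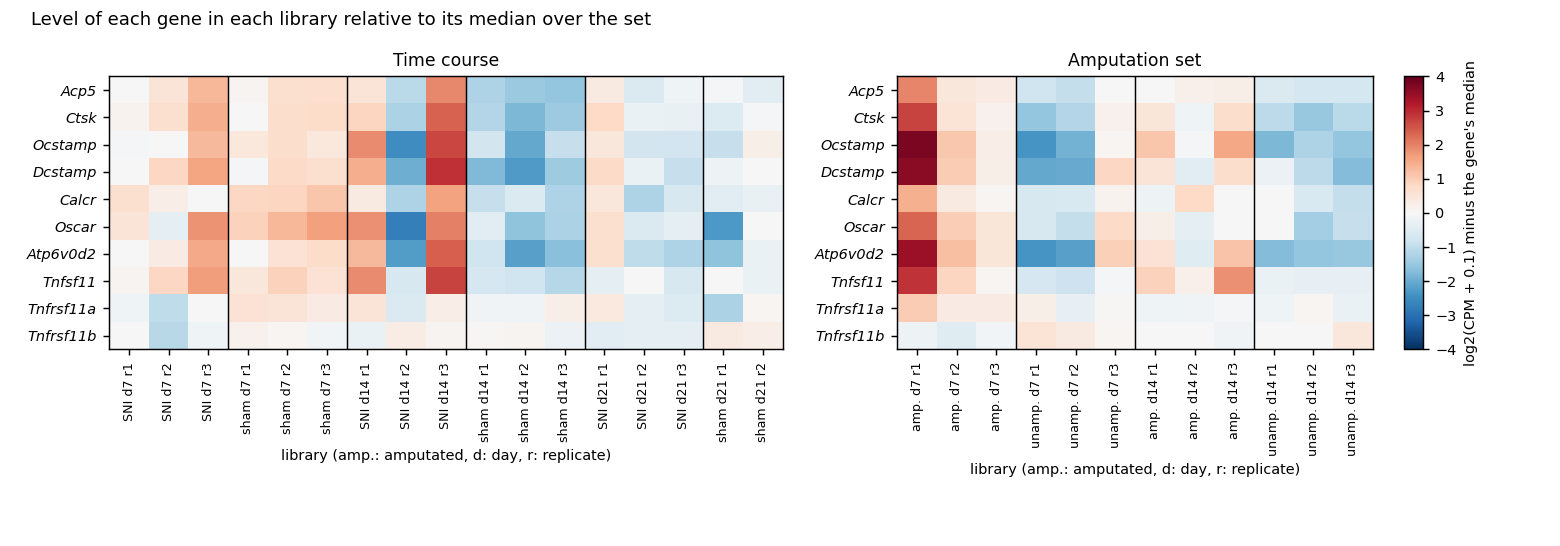
Heat map of log2(CPM + 0.1) of each gene minus its median over the set, by library, with colours from -4 to 4; the left panel is the time course and the right panel the amputation set. Columns for SNI day 14 replicate 3 and amputated day 7 replicate 1 are the highest for 8 and 9 genes, and the row of Tnfrsf11b differs from the rest in both panels.

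The genes whose levels ran most like 3 of the members were sought over the 17 libraries of the time course, by Pearson's r of log2 CPM. They are the highest of all genes, so r is a description, and the points share libraries, depth and cell makeup. Closest to Ctsk was Slc9b2, a sodium and proton exchanger of osteoclasts (r = 0.976, Spearman's rho 0.914), with r = 0.956 without the 2 libraries farthest from the Ctsk median and 0.957 over the 12 libraries of the amputation set. After it came Cd68, a lysosomal protein of macrophages and osteoclasts, with r = 0.948, and then Glb1, Mt3 and Timp1 with r of 0.923, 0.921 and 0.912. Closest to Tnfsf11 were the matrix metalloproteinases Mmp3 (r = 0.902) and Mmp13 (r = 0.897), followed by Tgfbr1, Slc9b2 and Timp1 with r of 0.895, 0.894 and 0.886. In the amputation set r with Tnfsf11 was 0.946 for Mmp3 and 0.926 for Mmp13. Closest to Tnfrsf11b was Pmp22, a membrane protein of myelin and other cells, with r = 0.839 in the time course and 0.669 in the amputation set.

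Of the 54 tested genes on 5 other lists of osteoclast biology, 5 were called in amputated against unamputated digits averaged over days, which is 9.26% beside 11.8% of all genes. Of 15 genes of the resorption machinery, 2 rose and 0 fell, and the median log2 fold change was 0.04 beside 0.01 over all genes. Mmp9, a gelatinase abundant in osteoclasts, had 617, 106 and 87.2 CPM in amputated digits at day 7, against 8.37, 7.12 and 66.2 CPM in unamputated digits. Over both days it averaged 177 ± 217 CPM in amputated digits and 21.2 ± 22.4 CPM in unamputated digits (SD, n = 6 each), a log2 fold change of 2.89 (SE 0.73, adjusted p = 0.0382). Siglec15, a receptor that promotes fusion, averaged 0.518 ± 0.476 CPM in amputated digits and 0.145 ± 0.0707 CPM in unamputated digits, with a log2 fold change of 1.69 (SE 0.47, adjusted p = 0.0388). Both shared the high library, and the vesicle genes Snx10 and Plekhm1 were not called, at log2 fold changes of 0.82 (SE 0.28, adjusted p = 0.0756) and -0.19 (SE 0.06, adjusted p = 0.0576).

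Of 19 genes of RANK signalling and osteoclast transcription, 0 rose and 1 fell, with a median of 0.08. The one that fell was Prdm1, a transcriptional repressor with roles in many cells including epidermis, at 71.04 ± 9.09 CPM in amputated digits and 93.6 ± 12.3 CPM in unamputated digits (log2 fold change -0.40 (SE 0.09, adjusted p = 0.0192)). Markers of differentiated epidermis fell for 3 of 5 genes in the same comparison, and their part in the Prdm1 value was not tested. The adaptor gene Tyrobp, the factor gene Mitf and the coactivator gene Ppargc1b were not called, at 0.70 (SE 0.21, adjusted p = 0.0514), 0.33 (SE 0.13, adjusted p = 0.104) and -0.22 (SE 0.11, adjusted p = 0.194). Of 5 repressors of osteoclast formation 1 fell, Pstpip2, an adaptor of the macrophage lineage, with a log2 fold change of -0.38 (SE 0.10, adjusted p = 0.0364). Bcl6, Irf8 and Tnfaip3 were not called, at -0.38, 0.33 and 0.19. The median of the 5 was -0.03.

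Of 10 tested ligands that favour osteoclasts, 1 rose, the cytokine Lif, with 5.104 ± 1.496 CPM in amputated digits and 3.02 ± 0.426 CPM in unamputated digits (log2 fold change 0.74 (SE 0.17, adjusted p = 0.0175)). Il34, which signals through the receptor of the colony-stimulating factor Csf1, and the interleukin genes Il1a and Il1b were not called, at 0.36, -0.25 and 1.68. The median of the 10 was 0.34. Of 5 tested factors that restrain osteoclasts none was called by edgeR, and 0 had an unadjusted p under 0.05, beside 5155 of all 17475 genes. Their median was 0.21, with Sema3a at 0.26 and Wnt16 at 0.40. The same background of 11.8% called among all genes applies to each of these lists.

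In SNI digits against sham digits averaged over days, none of the genes on these lists was called by edgeR. The smallest p values belonged to Snx10 (0.74 (SE 0.29, adjusted p = 0.337)) and Mmp9 (1.18) of the machinery, Spi1, the gene of PU.1 (0.89), and Prdm1 (-0.66) of transcription, and Irf8 (0.92) and Bcl6 (-0.76) of the repressors, all as log2 fold changes. Among ligands they were Il1b (2.43) and Il6 (1.92), and among the restraining factors Il10 (1.30) and Lgr4, a receptor for RANKL (-0.18). Mmp9 followed the day 14 pattern of the osteoclast genes, with 623, 27.99 and 656 CPM in SNI digits at day 14, against 81.1, 35.5 and 55.8 CPM in sham digits.

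SNI digits with amputation were sequenced in both sets, which share no libraries and were scaled apart, so no difference between them was tested. At day 7, Ctsk had 344, 493 and 861 CPM in the time course and 684, 155 and 119 CPM in the amputation set. At day 14 the values were 567, 129.7 and 1613 CPM and 148, 93.8 and 171 CPM, so the high levels of SNI day 14 replicates 1 and 3 had no counterpart in the 3 amputated SNI digits of day 14 in the second set. Tnfsf11 at day 14 likewise had 10.4, 1.72 and 18.6 CPM in the time course and 1.96, 1.14 and 3.698 CPM in the amputation set.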

How the data were processed

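Libraries were made from 500 ng of total RNA after poly(A) selection, with a stranded kit and 9 PCR cycles, per the labels. The authors deposited raw counts per gene and library; which aligner and counter they ran is not given in the sources used here, and the submitters' processing notes name GRCm39. All columns were matched to samples. GENCODE M21 (GRCm38) gave a symbol for 55141 identifiers and the exon lengths used for CPM per kilobase, which are approximate since the builds named differ.

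Each table was filtered (edgeR filterByExpr, minimum count 10, minimum total 15), scaled by TMM and fitted with edgeR's robust quasi-likelihood model with 1 mean per group, with all groups sharing 1 dispersion trend. Calls were made where the Benjamini-Hochberg p over all genes was under 0.05. Averages weight days equally. The ratio of Tnfsf11 to Tnfrsf11b was tested on log2 values with 0.5 added to each count. Among the other lists, named genes were up to 4 with the smallest p in the amputation average and up to 2 in the SNI average. The genes with levels most like a member were the 5 with the highest Pearson's r. The members, lists and tests were chosen with earlier results of these data known.

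The labels give SNI and sham digits the same replicate numbers without saying what they share. Deviations of same-numbered SNI and sham libraries from their group means had r of 0.243, 0.147 and 0.105 at day 14. The r was 0.387, 0.241 and -0.0933 at day 7, and -0.787 and -0.243 at day 21. The sign differed between days, so these values do not show what the numbers share. The replicate block changed no call at day 14. Alternatives were RLE size factors, library totals, no low-count filter, DESeq2, a fit of the compared groups, the block, leaving out libraries with TMM factors under 0.8, and leaving out each library. The fits were tested on simulated data. Total counts per library, given above, set the precision, and a count of 3 in a library was taken as the floor. Fits used edgeR 4.0.16, DESeq2 1.42.0 and limma 3.58.1 under R 4.3.3.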

Additional observations from a re-analysis of the deposited data

How the results depend on the processing

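Counts of called genes among the 10 kept their value under RLE size factors, library totals and, in the time course, under the replicate block and without the libraries with a TMM factor under 0.8. DESeq2 gave 4 for SNI against sham at day 14, 4 for amputated against unamputated digits at day 7, 7 for their average over days and 1 for amputated digits at day 14 against day 7. Without the low-count filter the amputation average gave 0 of the 10 (5.5% of all genes called), with more genes tested. With the replicate block it gave 2 (Ocstamp and Tnfsf11, with 6.37% of all genes called). Deviations of same-numbered libraries of that set had r from -0.203 to 0.022. The labels do not say what the numbers share, and these r values cannot decide whether the libraries are paired. A fit of the compared groups alone gave 4 for amputated against unamputated digits at day 14 and 1 for sham digits at day 14 against day 7, with fewer samples; averages and interactions use all groups and have no such fit. Leaving out 1 library gave 0 to 8 called genes for the amputation average, 0 to 1 at its day 7 (1 without amputated day 7 replicate 3) and at its day 14 (1 without amputated day 7 replicate 1), 0 to 1 for sham digits at day 21 against day 7 (Tnfrsf11a, without sham day 21 replicate 2, where the 1 library left is assumed to vary like the other groups), and 0 elsewhere. The ratio difference between SNI and sham digits was 1.05 without the libraries with low TMM factors, and 0.896 to 1.502 on leaving out 1 library; between amputated and unamputated digits it was 1.64 to 2.39 and kept passing. The cause of these shifts was not tested.

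The log2 fold changes that turned sign were uncalled. For SNI against sham digits at day 21, Ocstamp gave -0.015 with RLE size factors, -0.00662 without the filter, -0.00496 with DESeq2, -0.36 with the replicate block and -0.46 without the libraries with low TMM factors; the replicate block gave -0.034 for Acp5, -0.027 for Dcstamp and -0.17 for Calcr, library totals 0.085 for Tnfsf11, and leaving out the low TMM factors -0.00343 for Atp6v0d2 and -0.18 for Tnfrsf11a. At day 7 Ocstamp gave -0.066 with library totals and -0.14 with the replicate block. Leaving out 1 library turned a sign for Acp5 from -0.21 to 0.49, Atp6v0d2 from -0.30 to 0.58, Ctsk from -0.092 to 0.60, Dcstamp from -0.021 to 0.79, Ocstamp from -0.56 to 0.30 and Tnfsf11 from -0.16 to 0.65 at day 7, for Tnfrsf11a from -0.10 to 0.39 and Tnfrsf11b from -0.052 to 0.23 at day 14, for Acp5 from -0.12 to 0.37, Atp6v0d2 from -0.35 to 1.37, Calcr from -1.57 to 0.71, Dcstamp from -0.47 to 0.48, Ocstamp from -0.56 to 0.74 and Tnfrsf11a from -0.18 to 1.19 at day 21, for Tnfrsf11a from -0.27 to 0.17 in the SNI average, and for Tnfrsf11a from -0.073 to 0.10 in amputated against unamputated digits at day 14. Depth limits Calcr, with 0 to 28 counts per library, and Ocstamp and Oscar in unamputated digits.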
